A study of Pan troglodytes with 217 samples.

Results

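The Hippo pathway is described here through 10 of its genes in single cells of chimpanzee blastoids. The genes were the co-activators YAP1 and WWTR1, the DNA-binding partners TEAD1, TEAD3 and TEAD4, the TEAD cofactor VGLL1, and the upstream inhibitors AMOT, AMOTL2, LATS2 and NF2. They were looked up by symbol, and 10 of 10 matched an identifier among the 33729 Ensembl chimpanzee genes in the count table. These genes and the gene lists used below were chosen with earlier results of these data known. Their counts beside those of all genes are therefore descriptions only. Blastoids are blastocyst-like structures made in culture from naive pluripotent stem cells, here chimpanzee (Pan troglodytes) induced pluripotent stem cells kept in a medium with the EZH2 inhibitor EPZ-6438. They formed in medium with a MEK inhibitor, the TGF-beta receptor inhibitor A83-01, lysophosphatidic acid and the ROCK inhibitor Y-27632. The MEK inhibitor was then withdrawn, later the other agents were too, and the blastoids were taken apart at day 4. Most of the mural trophectoderm, the part away from the inner cells, was excised by hand, and SMART-seq2 libraries, which cover whole transcripts and hold no molecular identifiers, were made from single cells. Every cell falls in 1 group with the same treatment. Since no label ties a cell to its blastoid, cell line or batch, the cells were treated as 1 sample, and with no replicates nothing was tested.

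In the Hippo pathway, the kinases STK3 and STK4 activate LATS1 and LATS2, which phosphorylate YAP1 and WWTR1 (also called TAZ) and keep them out of the nucleus. NF2 and the angiomotins AMOT and AMOTL2 assist this inhibition at cell junctions. When the kinases are inactive, as in the polarized outer cells of an early embryo, YAP1 and WWTR1 enter the nucleus and bind TEAD proteins, and TEAD4 with YAP1 turns on trophectoderm genes such as GATA3 and CDX2. Much of this control acts on proteins, through phosphorylation and location in the cell, and read counts do not measure it. VGLL1 binds a surface of TEAD proteins that overlaps the one YAP1 binds and is known from human placental trophoblast.

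Of the sequenced cells, 24 had fewer than 8000 detected genes and were left out, and the others had 1679888 to 25630392 reads each on 8199 to 13692 genes. Leiden clustering gave 4 clusters, named from fixed marker lists as 50 epiblast-like, 32 hypoblast-like, 60 early trophectoderm-like and 51 late trophectoderm-like cells. Of the markers measured, 9 of 9 epiblast, 9 of 10 hypoblast, 10 of 10 trophectoderm and 5 of 5 late trophectoderm genes were highest in their own class by summed CPM, the exception being the hypoblast marker LAMA1, highest in early trophectoderm-like cells. The clusters were named by these same lists, so this was no independent check. A trophectoderm marker counted where it was highest in early or in late cells. CDX2 was at 1.62 CPM in late trophectoderm-like cells, below epiblast-like (4.35 CPM) and hypoblast-like cells (9.11 CPM). KRT7 was at a median of 0 in early trophectoderm-like cells, as were INSL4 and ERVFRD-1 in late ones. The median of SDC1 was higher in hypoblast-like (12.6 CPM) than in late cells (6.15 CPM). Clustering without any of the Hippo genes or YAP targets put 100% of the cells in the same class. At least 6 markers of each of 2 lineage lists reached 10 CPM in 18 of the epiblast-like, 12 of the hypoblast-like, 0 of the early and 3 of the late trophectoderm-like cells, and no doublets were called or removed. The trophectoderm markers GATA3, GATA2, CDX2, KRT7, KRT18, KRT19, DAB2, TFAP2A and KRT8 summed to 307 to 7143 CPM (read counts of a cell scaled to a total of 1000000) in epiblast-like cells and 625 to 7901 CPM in hypoblast-like cells. In early and late trophectoderm-like cells the same sum was 5546 to 22312 and 3472 to 15210 CPM. Levels are given per cell in CPM, or as CPM of the summed reads of a class with an exact Poisson 95% interval. The intervals cover the counting error of reads only. They leave out the spread between cells, since reads are pooled, and PCR copies of a cDNA are each counted. The real uncertainty is thus wider than they show.

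Most of the 10 Hippo genes were at higher levels in trophectoderm-like than in epiblast-like cells. Of the 10 genes, 6 were at least 2-fold higher in summed CPM (VGLL1, TEAD1, TEAD3, AMOTL2, AMOT and YAP1), where 11.6% of the 12955 genes at 1 CPM or more in either class were, and 0 were at least 2-fold lower, where 23.6% of all genes were. WWTR1, LATS2, TEAD4 and NF2 lay within 2-fold. The median log2 ratio was 1.77 for the 10 genes and -0.15 for all genes. Against hypoblast-like cells, VGLL1, TEAD1, TEAD3 and AMOTL2 were past 2-fold higher (4 of 10, beside 13.8% of 12428 genes) and WWTR1 was past 2-fold lower (1 of 10, beside 15.3%). The median log2 ratio was 0.52 for the 10 genes and 0.02 for all.

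Hypoblast-like and epiblast-like cells differed past 2-fold in 2 genes, AMOT and WWTR1, both higher in hypoblast-like cells, where 7.39% of 12817 genes were. None of the 10 was past 2-fold lower, where 19% of all genes were, and the medians were 0.11 for the 10 and -0.18 for all. When cells with at least 6 markers of each of 2 lineages were left out, an alternative added after the data were seen, 6 of the 10 were past 2-fold higher (VGLL1 4.27, AMOT 3.26, WWTR1 2.44, TEAD3 1.29, TEAD1 1.21 and YAP1 1.15 on the log2 scale), beside 9.97% of 12898 genes, and 0 of the 10 were past 2-fold lower, beside 20.5%. The VGLL1 value rests on few cells, since the median cell of both classes had no VGLL1 read. Late trophectoderm-like cells had more VGLL1 and TEAD3 than early ones (2 of 10 past 2-fold higher, beside 10.3% of 12041 genes) and less NF2 (1 of 10 past 2-fold lower, beside 8.72%). The medians were 0.18 for the 10 genes and 0.05 for all.

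**Figure D1:**
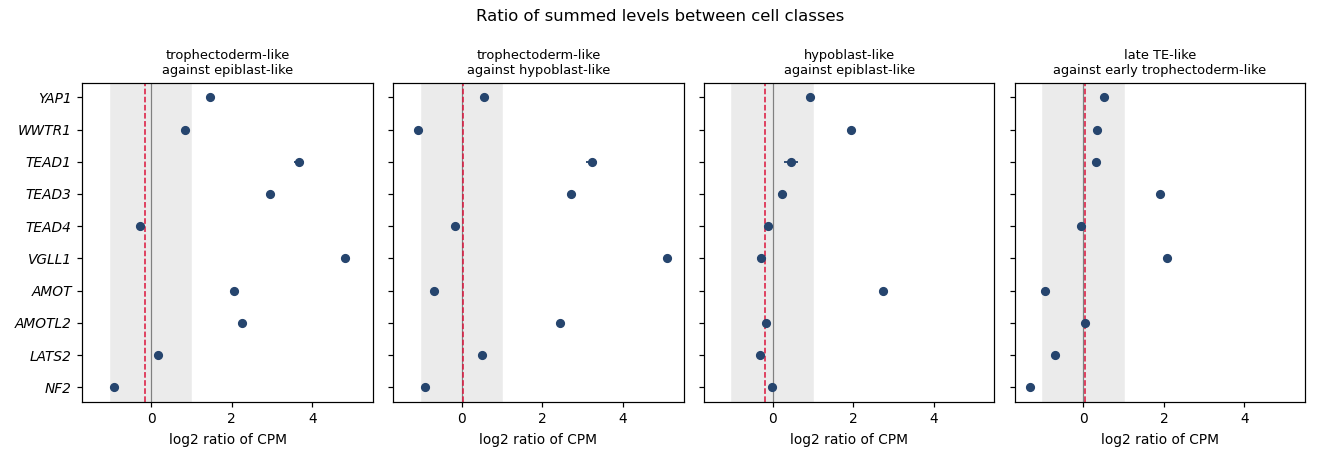
Log2 ratio of summed CPM for the 10 Hippo genes in 4 comparisons of cell classes, with 95% counting intervals mostly smaller than the points. The grey band marks ratios within 2-fold and the dashed red line the median of all genes tested. VGLL1 lies farthest right in the panels with trophectoderm-like cells, at 4.80, 5.10 and 2.08, and AMOT in the hypoblast-like against epiblast-like panel, at 2.75.

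Of the 10 genes, VGLL1 (ENSPTRG00000022317) separated trophectoderm-like cells from the others, and late from early cells, most widely. It did not separate hypoblast-like from epiblast-like cells in the main comparison (log2 ratio -0.29). Its level ran from 20.3 CPM in the lowest late trophectoderm-like cell through a median of 550.2 to 1221 CPM in the highest. Early trophectoderm-like cells ran from 0 through a median of 75.8 to 585 CPM. The interquartile ranges, 297 to 662 CPM in late and 32.4 to 167.2 CPM in early cells, did not overlap, while the full ranges did. Epiblast-like cells had a median of 0 and a highest value of 96.0 CPM, and hypoblast-like cells a median of 0.770 and a highest value of 57.02 CPM. Summed over cells, VGLL1 was at 11.3 CPM (95% interval 10.9 to 11.8) in epiblast-like, 9.24 CPM (8.72 to 9.78) in hypoblast-like, 123.1 CPM (121.8 to 124.4) in early and 520.4 CPM (518 to 523) in late trophectoderm-like cells. The log2 ratio of trophectoderm-like over epiblast-like cells was 4.80 (4.74 to 4.86), a 27.9-fold difference, and that over hypoblast-like cells was 5.10 (5.01 to 5.18). Late cells were 4.23-fold above early cells, a log2 ratio of 2.08 (2.06 to 2.10).

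The VGLL1 reads outside the trophectoderm-like classes came from few cells. VGLL1 reached 10 CPM in 15 of the 50 epiblast-like cells and in 10 of the 32 hypoblast-like ones, against 54 of 60 early and 51 of 51 late trophectoderm-like cells. The 5 highest cells held 53.2% of the VGLL1 reads of the epiblast-like class and 72.3% of those of the hypoblast-like class. In the early and late trophectoderm-like classes the 5 highest held 43.2% and 25.5%. Across the 50 epiblast-like cells, VGLL1 went with the summed trophectoderm markers (Spearman rho 0.66), and across the 32 hypoblast-like cells it did so weakly (rho 0.16). GATA3, a defining trophectoderm factor, had reads in 37 of 50 epiblast-like cells at a median of 5.74 CPM. KRT7 had reads in 9 of 50 epiblast-like cells, and in 4 of 60 early and 29 of 51 late trophectoderm-like cells. When the cells with at least 6 markers of each of 2 lineages were left out, 32 epiblast-like and 20 hypoblast-like cells remained. VGLL1 then had reads in 5 of the 32 and 9 of the 20, at 0.546 and 10.6 CPM summed. The log2 ratio of trophectoderm-like over epiblast-like cells became 9.19, and that of hypoblast-like over epiblast-like cells went from -0.29 to 4.27. The filter removes cells by lineage markers, which VGLL1 followed in epiblast-like cells, so a lower level in the cells left was partly built in. Ratios under this filter, here and elsewhere, are no independent check. The median was 0 in both sets of remaining cells, and 5 of the 20 hypoblast-like cells and 1 of the 32 epiblast-like cells reached 10 CPM. Trophectoderm RNA in epiblast-like libraries was not tested as a source of their VGLL1 reads.

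**Figure D2:**
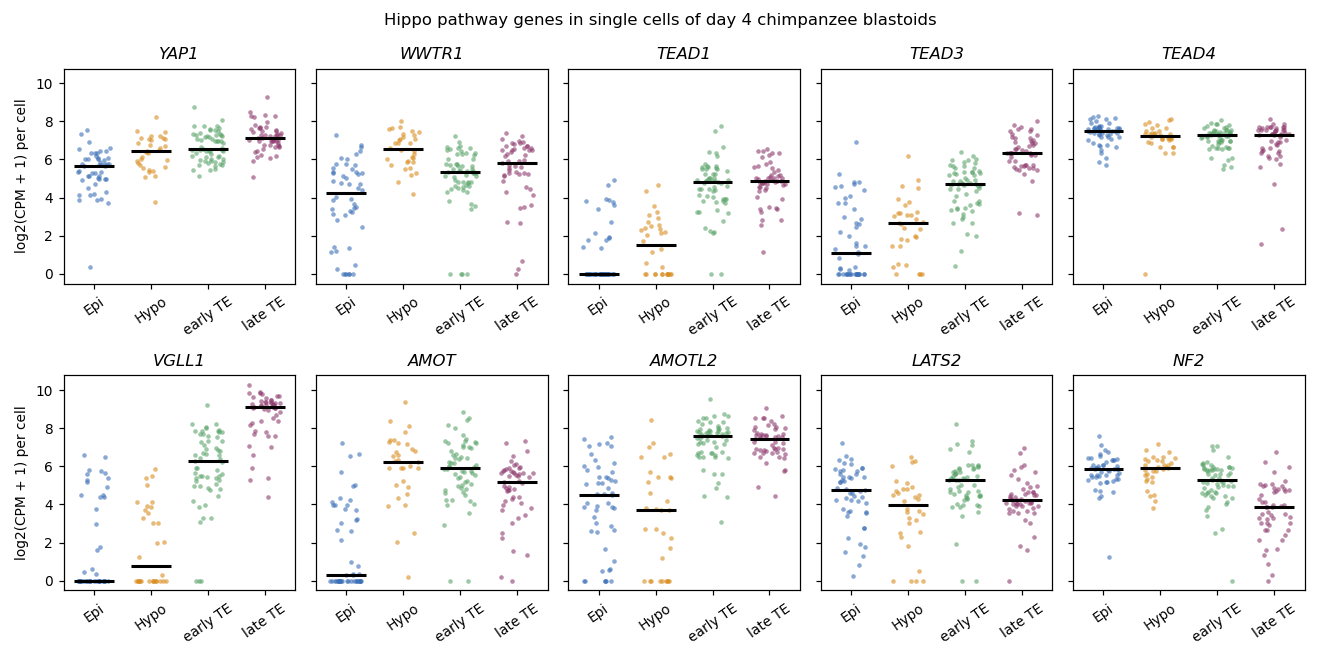
Level of each of the 10 Hippo genes in every cell, as log2(CPM + 1), in 50 epiblast-like (Epi), 32 hypoblast-like (Hypo), 60 early and 51 late trophectoderm-like (TE) cells. Each point is a cell and each black line a class median. VGLL1 and TEAD3 step up from early to late TE cells, TEAD4 stays level over all 4 classes, and NF2 is lowest in late TE cells.

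TEAD4 (ENSPTRG00000004538), the TEAD factor needed for trophectoderm in the mouse embryo, was the member most alike in the 4 classes. Its class medians were 179.7 CPM in epiblast-like, 149.6 in hypoblast-like, 151.99 in early and 156.99 in late trophectoderm-like cells, and all interquartile ranges of neighbouring medians overlapped. The log2 ratio of trophectoderm-like over epiblast-like cells was -0.29 (-0.31 to -0.27). It had reads in all cells but 1, a hypoblast-like cell, and its late trophectoderm-like cells ran down to 1.99 CPM.

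TEAD3 (ENSPTRG00000018086), a TEAD gene known from placenta, had medians that ran from 1.13 CPM in epiblast-like and 5.27 CPM in hypoblast-like cells to 25.2 CPM in early and 81.1 CPM in late trophectoderm-like cells. Early cells ran from 0.349 to 81.5 CPM and late cells from 7.57 to 262.7 CPM, and their interquartile ranges (11.8 to 39.7 and 50.9 to 124.9 CPM) did not overlap. The highest epiblast-like cell was at 118.5 CPM and the highest hypoblast-like cell at 71.8 CPM, above the early median. The log2 ratio was 2.95 (2.88 to 3.03) for trophectoderm-like over epiblast-like cells, 2.71 (2.63 to 2.80) over hypoblast-like cells and 1.89 (1.85 to 1.93) for late over early cells.

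TEAD1 (ENSPTRG00000039896), a broadly expressed TEAD gene, also separated trophectoderm-like cells from the others but not late from early. Its medians were 26.7 CPM in early and 28.1 CPM in late cells, with highest values of 218.1 and 91.9 CPM. Epiblast-like cells had a median of 0 and a highest value of 29.7 CPM, and hypoblast-like cells a median of 1.89 and a highest value of 24.4 CPM. The log2 ratio of trophectoderm-like over epiblast-like cells was 3.68 (3.55 to 3.80), and late over early cells gave 0.32 (0.27 to 0.36). Without the cells that carried 6 markers of 2 lineages, the ratios over epiblast-like cells were 5.30 for TEAD1 and 4.61 for TEAD3. At a clustering resolution of 1.5, where 52 cells were epiblast-like, they were 2.40 and 1.83.

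The makeup of the TEAD reads differed between classes. TEAD4 gave 93.5% of the reads of the 4 TEAD genes in epiblast-like, 92% in hypoblast-like, 72.8% in early and 52% in late trophectoderm-like cells. TEAD3 gave 3.96%, 4.99%, 12.3% and 34.3% in the same order, and TEAD1 gave 1.34%, 1.97%, 14.3% and 13.4%. Within single late cells the TEAD4 share ran from 0.683% through a median of 56.2% to 83.4%. These are shares of reads, which depend on transcript length, so they compare classes and not the amounts of the 4 transcripts within a class. The sum of the 4 genes was 189.4, 177.3 and 203.7 CPM in epiblast-like, hypoblast-like and early cells and 272 CPM in late cells.

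**Figure D3:**
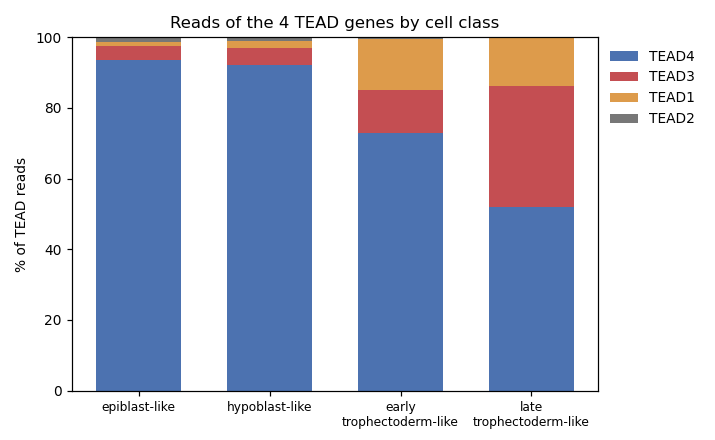
Share of the summed reads of TEAD1, TEAD2, TEAD3 and TEAD4 that came from each gene, in percent, for the 4 cell classes. The TEAD4 part shrinks from 93.5% in epiblast-like to 52% in late trophectoderm-like cells, while the TEAD3 part grows from 3.96% to 34.3%.

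The co-activators differed in where they were highest. YAP1 (ENSPTRG00000004211) had reads in every cell of the 4 classes, with medians of 49 CPM in epiblast-like, 85.4 in hypoblast-like, 93.1 in early and 140.3 in late trophectoderm-like cells. The ranges were 0.271 to 188.3, 12.7 to 302, 34.5 to 423 and 32.3 to 613 CPM, so the classes overlapped throughout, and neighbouring interquartile ranges did too. The log2 ratio was 1.47 (1.44 to 1.501) for trophectoderm-like over epiblast-like cells and 0.55 (0.52 to 0.58) over hypoblast-like cells. WWTR1 (ENSPTRG00000015519) was highest in hypoblast-like cells, where its median was 92.02 CPM and its lowest cell 17.1 CPM. Its other medians were 17.7 CPM in epiblast-like, 39.1 in early and 55.3 in late trophectoderm-like cells, and each of these classes held cells with no WWTR1 read. The log2 ratio of hypoblast-like over epiblast-like cells was 1.94 (1.89 to 1.98), and that of trophectoderm-like over hypoblast-like cells was -1.09 (-1.11 to -1.06). This last value became -0.99, within 2-fold, when CPM were averaged over cells. WWTR1 reads per YAP1 read were 0.607 in epiblast-like, 1.23 in hypoblast-like, 0.422 in early and 0.374 in late trophectoderm-like cells. VGLL1 reads per YAP1 read went the other way, from 0.227 and 0.0978 in the first pair of classes to 1.08 in early and 3.17 in late cells.

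The angiomotins, junction proteins that bind YAP1, showed unlike patterns. AMOTL2 (ENSPTRG00000015421), which is also a transcriptional target of YAP1, had medians of 191.4 CPM in early and 172.9 CPM in late trophectoderm-like cells against 21.99 CPM in epiblast-like and 12.05 CPM in hypoblast-like cells. The lowest early and late cells were at 7.53 and 20.4 CPM, while the highest epiblast-like and hypoblast-like cells reached 185.6 and 340.5 CPM. The log2 ratio over epiblast-like cells was 2.26 (2.23 to 2.29) and that over hypoblast-like cells 2.43 (2.39 to 2.48). Without the cells that carried 6 markers of 2 lineages, the first became 3.55 and the second 3.02. AMOT (ENSPTRG00000022197) was low in epiblast-like cells alone, with a median of 0.237 CPM and no read in 24 of 50 cells. Its medians were 74.6 CPM in hypoblast-like, 59.6 in early and 35.1 in late trophectoderm-like cells, with highest cells of 662, 455 and 157.5 CPM. The log2 ratio over epiblast-like cells was 2.75 (2.69 to 2.80) for hypoblast-like and 2.06 (2.01 to 2.11) for trophectoderm-like cells. By class medians with a pseudocount of 1 CPM these were 5.93 and 5.30, and 5 cells held 75.9% of the epiblast-like AMOT reads. Late over early cells gave -0.95 (-0.99 to -0.92), and 8 of 14 alternatives kept it within 2-fold. AMOT reads per AMOTL2 read were 2.95 in hypoblast-like cells and 0.389, 0.449 and 0.225 in epiblast-like, early and late trophectoderm-like cells.

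NF2 (ENSPTRG00000014227), the tumour suppressor merlin that activates the LATS kinases, was lowest in late trophectoderm-like cells. Its medians were 56.6 CPM in epiblast-like, 59.9 in hypoblast-like, 37.3 in early and 13.6 in late cells. Late cells ran from 0 to 108.4 CPM and early cells from 0 to 134.5 CPM, and their interquartile ranges overlapped (6.74 to 26.5 and 23.2 to 57.5 CPM). The log2 ratio of late over early cells was -1.33 (-1.38 to -1.28). It was between -2.03 and -1.93 when clusters were made at a resolution of 0.5 or 1.5 or on the UMAP coordinates. Trophectoderm-like over epiblast-like cells gave -0.93 (-0.96 to -0.89), within 2-fold. YAP1 reads per NF2 read were 0.838 in epiblast-like, 1.60 in hypoblast-like, 2.58 in early and 9.31 in late trophectoderm-like cells. LATS2 (ENSPTRG00000005691), the kinase itself and also a YAP1 target, had medians of 25.7, 14.7, 37.99 and 17.7 CPM in the same order. All its interquartile ranges of neighbouring medians overlapped, and its log2 ratios were 0.17 (0.13 to 0.21) for trophectoderm-like over epiblast-like and -0.70 (-0.75 to -0.66) for late over early cells.

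The number of Hippo genes at 10 CPM or more in 1 cell was higher in trophectoderm-like cells. The median was 5.5 of 10 in epiblast-like cells (range 2 to 10), 7 in hypoblast-like cells (4 to 10), and 9 in both early (7 to 10) and late cells (6 to 10). Over the 8560 genes at 10 CPM or more in a class, the median share at this level in a cell was 78.4%, 74.4%, 73.6% and 76.2% in the same order. YAP1 and TEAD4 were together at this level in 49 of 50, 31 of 32, 60 of 60 and 49 of 51 cells of the 4 classes. VGLL1, TEAD1 and TEAD3 were together at it in 3 of the 50 epiblast-like, 1 of the 32 hypoblast-like, 34 of 60 early and 42 of 51 late trophectoderm-like cells.

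Within a class, most pairs of the 10 genes were weakly related across cells. Of 45 pairs, a Spearman rho of 0.5 or more in size was seen for 2 in epiblast-like, 3 in hypoblast-like, 0 in early and 2 in late trophectoderm-like cells. These are descriptions over the cells of 1 sample, without a p, and the values of a cell share its total. In the 51 late cells TEAD3 and TEAD4 had a rho of -0.64, and AMOTL2 and LATS2 one of 0.57. In the 50 epiblast-like cells VGLL1 had a rho of 0.62 with AMOTL2 and 0.51 with TEAD1, and both VGLL1 and AMOTL2 went with the summed trophectoderm markers there (0.66 and 0.52). In the 32 hypoblast-like cells YAP1 went with AMOT (0.58), TEAD1 with AMOTL2 (0.58), and TEAD4 against NF2 (-0.57). VGLL1 and NF2 had a rho of -0.35 in early and -0.45 in late cells. VGLL1 and TEAD3, both higher in late than in early cells, had rhos of -0.16 and -0.18 within those classes. NF2 had a rho of 0.61 with the summed trophectoderm markers in the 51 late cells and 0.07 in the 60 early cells, and VGLL1 had -0.33 in late and 0.43 in early cells. VGLL1 had rhos of 0.07 and 0.11 with the total reads of a cell in early and late cells, and NF2 had 0.08 and -0.20. With the number of detected genes, VGLL1 had 0.37 and 0.04 and NF2 had 0.05 and 0.25, and the part of depth in these relations was not tested.

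**Figure D4:**
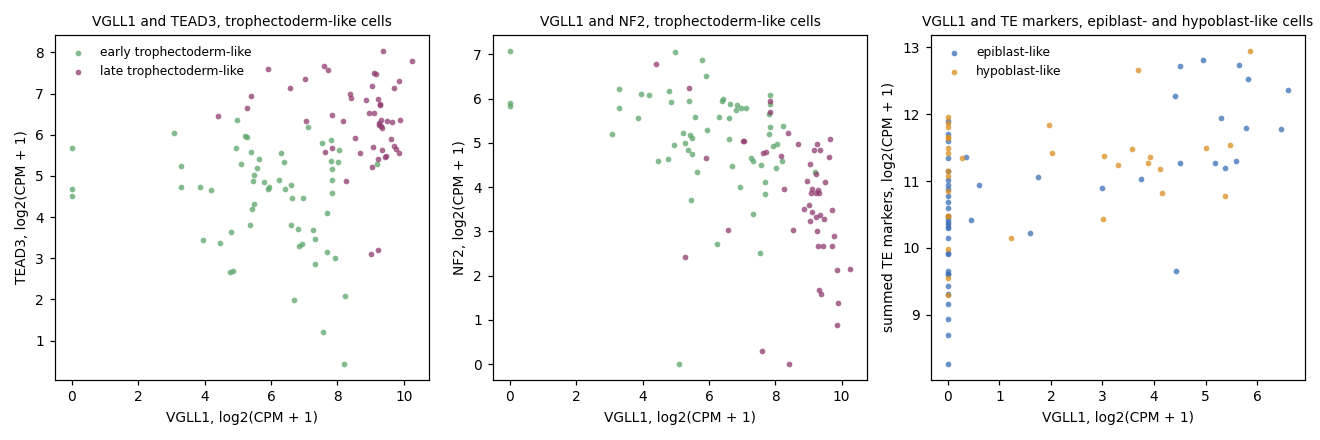
Level of VGLL1 against TEAD3 and against NF2 in 60 early and 51 late trophectoderm-like cells, and against the summed trophectoderm (TE) markers in 50 epiblast-like and 32 hypoblast-like cells, all as log2(CPM + 1), 1 point a cell. Most late cells lie to the right of most early cells, with overlap. Within the early and late classes the rho with TEAD3 is -0.16 and -0.18 and that with NF2 is -0.35 and -0.45, and epiblast-like cells high in VGLL1 lie high in TE markers.

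The other core and upstream Hippo genes, a list of 26, held genes past 2-fold in both directions. In trophectoderm-like against epiblast-like cells, 24 reached 1 CPM, of which 7 were past 2-fold higher and 4 past 2-fold lower, with a median log2 ratio of 0.12 beside -0.15 for all genes. All genes gave 11.6% higher and 23.6% lower, and with 24 genes the lower count was not far from the share of all genes. The 5 largest differences were PTPN14, a phosphatase that retains YAP1 in the cytoplasm (2.72), WWC3 (2.64) and WWC1 (1.93), scaffolds that aid LATS activation, the angiomotin AMOTL1 (2.45), and the scaffold DLG5 (2.13). AMOTL1, like AMOT, was highest in hypoblast-like cells, at 34.7 CPM beside 2.95 in epiblast-like and 16.1 in trophectoderm-like cells. Against hypoblast-like cells, 6 of 22 were higher and 2 lower, beside 13.8% and 15.3% of all genes, with a median of -0.20. Hypoblast-like against epiblast-like cells gave 4 higher and 4 lower of 24, beside 7.39% and 19% of all genes, with a median of 0.09. In late against early cells 1 of 22 was higher and 2 were lower, beside 10.3% and 8.72% of all genes, with a median of -0.01. With 22 genes, neither count was far from the share of all genes. DLG5 was the higher one (1.497), going from 29.03 to 81.9 CPM. The lower ones were SAV1, the adaptor of the STK3 and STK4 kinases (-1.63, from 160.4 to 51.97 CPM), and WWC2 (-1.12, from 34.8 to 16 CPM).

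A signature of 22 YAP1 and WWTR1 target genes, of which AMOTL2 and LATS2 are also among the 10, was higher in trophectoderm-like than in epiblast-like cells for most genes measured. Of 16 at 1 CPM or more, 10 were past 2-fold higher and 2 lower, beside 11.6% and 23.6% of all genes, with a median log2 ratio of 1.48 beside -0.15. ANKRD1 (3.91), CCDC80 (3.56), MYOF (2.79), NUAK2 (2.74) and PTPN14 (2.72) differed most. Of these, ANKRD1 reached 10 CPM in hypoblast-like cells alone and was higher there than in either trophectoderm-like class. The much-used targets CCN1 and CCN2, named here after their values were seen, lay within 2-fold at 0.46 and -0.39. Hypoblast-like cells were higher than epiblast-like cells in 7 of 19 targets and lower in 2, beside 7.39% and 19% of all genes, with a median of 0.62. Without the cells that carried 6 markers of 2 lineages, 10 of 18 were higher and 4 lower, beside 9.97% and 20.5% of all genes, so the lower count was near that of all genes. Trophectoderm-like cells were higher than hypoblast-like cells in 6 of 17 and lower in 5, beside 13.8% and 15.3% of all genes, with a median of 0.49 beside 0.02. Without the cells that carried 6 markers of 2 lineages, 8 of 17 were higher and 3 lower, beside 15.1% and 16.7%.

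From early to late trophectoderm-like cells, 0 of 15 targets were past 2-fold higher and 6 were past 2-fold lower, beside 10.3% and 8.72% of all genes, with a median log2 ratio of -0.70 beside 0.05. CCDC80, a secreted matrix protein, was at 33.8 CPM in early and 1.91 CPM in late cells (-4.15). ANKRD1 was at 6.74 and 0.610 CPM (-3.47), and F3, the gene of tissue factor, at 329 and 73.5 CPM (-2.16). Few cells carried ANKRD1, with reads in 26 of 60 early and 6 of 51 late cells, while F3 had reads in 59 of 60 and 47 of 51. MYOF, a membrane-repair protein, was at 288 and 149.7 CPM, within 2-fold (-0.95), and AMOTL2 was alike in both at 0.04. YAP1 itself was 0.52 higher on the log2 scale in late cells.

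**Figure D5:**
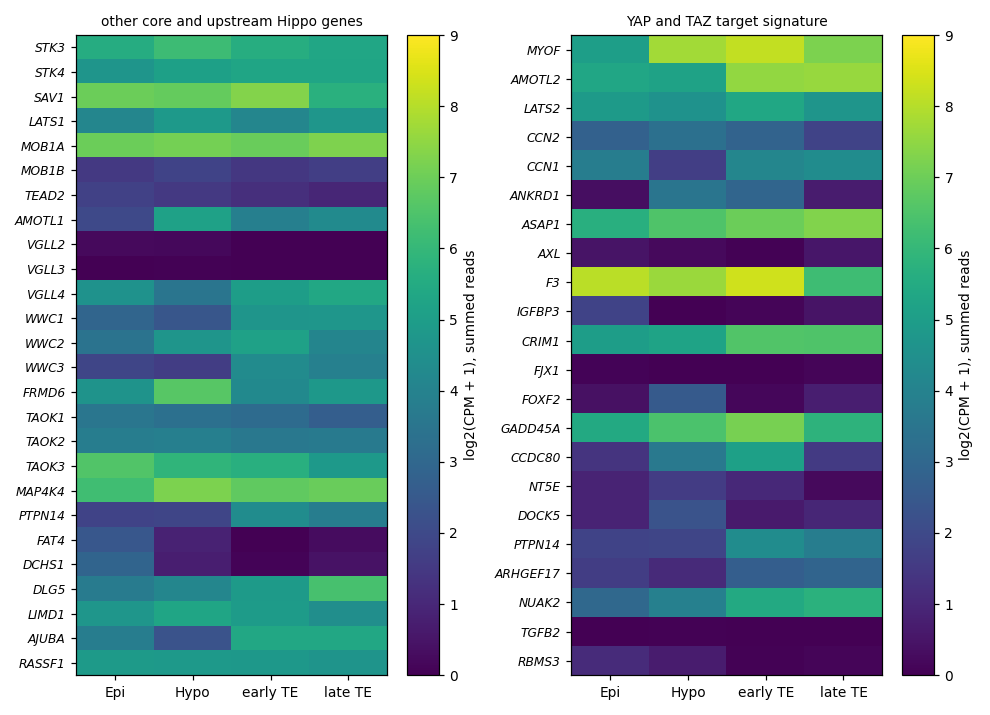
Summed level of 26 other Hippo genes and 22 YAP1 and WWTR1 target genes in the 4 cell classes, coloured by log2(CPM + 1). Rows are to be read across classes, since CPM depends on transcript length. ANKRD1, CCDC80 and F3 darken from early to late trophectoderm-like (TE) cells, and AMOTL1 and FRMD6 are brightest in hypoblast-like cells.

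The genes most like the Hippo genes across the cells of the 4 classes were sought among 8559 genes at 10 CPM or more in a class, by the Spearman rho of log2(CPM + 1). These rhos span 4 classes, so differences between the classes enter them, and the size of that part was not tested. VGLL1 was closest to GRAMD2A (0.88) and CYP11A1 (0.86), the side-chain cleavage enzyme of steroid synthesis. TEAD3 was closest to the trophoblast factors GATA2 (0.85) and GRHL1 (0.84), and AMOTL2 to GATA3 (0.79) and the oestradiol-forming enzyme HSD17B1 (0.75). TEAD1 was closest to MPZL1 (0.77) and GREB1L (0.75), and AMOT to MYOF (0.70) and CD99 (0.65). YAP1, WWTR1, TEAD4 and LATS2 had no gene at 0.7 or above.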

How the data were processed

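Single cells of day 4 chimpanzee blastoids were analysed from the counts of reads per gene that the authors deposited without normalization. The methods of the study name FastP for trimming and STAR for alignment to Pan_tro_3.0 and for counting on Ensembl genes, while the submitters' processing notes name Trim Galore 0.6.6, STAR 2.7.7a and GRCh38. The strand setting of the counting is not given in the sources used here. In RefSeq's table, 5 of the 10 genes overlap another gene (WWTR1, TEAD1, VGLL1, LATS2 and NF2), with 0 of these others protein-coding.

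Symbols were attached to 18783 of 33729 identifiers from a table that pairs them, and reads of identifiers that share a symbol (WWC2, for example) were summed. The 10 genes and the lists were chosen with earlier results of these data known. Cells with fewer than 4000 reads or 8000 detected genes were left out (24 of 217). This is the filter the study states, and it left more cells here than the number the study gives. Scanpy 1.11.5 normalized and log-transformed the counts of genes with reads in 20 or more cells, and computed 50 components and 30 neighbours, and leidenalg 0.10.2 clustered at a resolution of 1 with seed 0. Each cluster took the name of the lineage whose markers (epiblast, hypoblast or trophectoderm) had the highest average of standardized levels, and trophectoderm-like clusters were divided into early and late by CCR7, CGA, INSL4, SDC1 and ERVFRD-1.

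Reads were summed per class and divided by the summed totals (CPM). Ratios have exact binomial 95% intervals for counting error. With 1 sample there was no test. A gene counted as different where its ratio passed 2-fold, among genes at 1 CPM or more in either class. Of the other Hippo genes and the targets, the 5 with the largest ratio in trophectoderm-like against epiblast-like cells and the 3 largest in late against early cells, at 10 CPM or more in a class, are named. FRMD6, CCN1 and CCN2 were named after their values were seen, and the closest correlated genes of a Hippo gene are given only where the first of them passed a rho of 0.7. Those of NF2, and 1 trophectoderm marker in the summed marker level, are not reported here. To put shares on an equal footing, the reads of 173 cells were drawn down to 2532312, and 20 cells with fewer reads were left out of that step. The ratio calculation was tested on simulated data. Other tools were scipy 1.17.1, pandas 2.3.3 and numpy 2.4.6 under Python 3.11.15, and matplotlib 3.10.9. Sequences and positions were not used here.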

Additional observations from a re-analysis of the deposited data

Results flagged for a closer look

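The 24 cells left out for few detected genes entered no comparison, and signal of the Hippo genes was seen in them. YAP1 had reads in 24 of the 24, at a median of 69.2 CPM. VGLL1 reached 10 CPM in 11 of the 24, with a highest value of 552 CPM. These cells belong to no class, so the values are given without comparison.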

How the results depend on the processing

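Of the 40 log2 ratios of the 10 genes, 16 were past 2-fold. All 16 kept their sign, and 15 stayed past 2-fold, under every alternative of cell filter, clustering, summary over cells, normalization, depth and single cells that was run (13 for each ratio, and 14 for late against early cells). The exception was WWTR1 in trophectoderm-like against hypoblast-like cells. Clustering without the Hippo genes and targets put every cell in the same class, so that alternative could not change a ratio. A resolution of 0.5 moved cells only between the early and late classes, so it could change only late against early ratios. Another 9 ratios passed 2-fold under at least 1 alternative, among them AMOT in late against early cells, and the cause was not tested. In hypoblast-like against epiblast-like cells the count of genes past 2-fold was 6 without cells that carried 6 markers of 2 lineages (32 and 20 cells were left), 4 by the median of CPM per cell, and 2 in the main comparison, all higher, where 9.97% and 5.67% of all genes were higher under those alternatives. In late against early cells it was 5 (2 higher and 3 lower) at a 1.5-fold threshold, which admits smaller ratios and which 18.4% of all genes passed upward and 15.9% downward, and 3 at 2-fold. In trophectoderm-like against epiblast-like cells it was 7, all higher, without the cells that carried 6 markers of 2 lineages (13.3% of all genes were higher). By the median it was 8, with 7 higher and NF2 lower (-1.10), beside 9.68% and 21.9% of all genes. With median-of-ratios factors the median over all genes in trophectoderm-like against epiblast-like cells went from -0.15 to 0.02, and WWTR1 also passed 2-fold, as did YAP1 in hypoblast-like against epiblast-like cells. Among all genes with a read, 48.3% of those past 2-fold in trophectoderm-like against epiblast-like cells were higher, beside 32.9% in the main comparison, and 64.3% beside 47.5% against hypoblast-like cells. By the median per cell, 66.1% were higher in late against early cells, beside 54.2%, and this was the highest value of any setting. The lowest were 45.9% without cells with 3 markers of 2 lineages, 47.7% at a resolution of 1.5 and 48.3% by the mean per cell. Other clusterings put 91.2% to 100% of cells in the same class. Thinning, which left out 20 cells with too few reads, moved 0 of 40 shares of cells with a read beyond their binomial 95% intervals, and a threshold of 10 CPM moved 18 of 40 beyond them. Leaving out cells with 3 markers of 2 lineages left 1 epiblast-like and 0 hypoblast-like cells, so it was used for late against early cells only. Shares of TEAD reads per kilobase were not run, since no transcript lengths were used. No paired analysis was possible because the cells form 1 sample and no result comes from a test, and there was no replicate to leave out. With 1 sample, the spread between blastoids and lines is unknown.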
